A study of Mus musculus with 19 samples.

Results

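The genes described here were Cish, the 7 suppressor of cytokine signalling genes Socs1 to Socs7 and the neighbouring transcription factor genes Stat5a and Stat5b, 10 of the 21000 protein-coding genes annotated on the mouse genome (mm10, GRCm38). Members were taken by name, with earlier results of these data known. Cish was selected on its measured coverage, present over the gene in the Neonatal lists and low or missing there in the Adult lists. Its own values below are therefore a description and carry no test. The series profiled 5-hydroxymethylcytosine (5-hmC), an oxidised form of methylated cytosine in DNA, by antibody precipitation and sequencing (hMeDIP-seq) of cardiomyocytes (CMCs), the contractile cells of the heart. Each library is represented by the peaks that the authors called against input DNA.

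The 4 points were E14.5 (ventricles of C57BL/6J embryos), Neonatal (pups of 1 or 2 days), Adult (male mice of 2 months, cells perfused from the left ventricle) and TAC (adult males after 1 week of transverse aortic constriction, a surgery that loads the left ventricle with pressure). Each point had 2 replicates, which the study describes as biological, and all 8 libraries came from the same strain. The Adult libraries are not labelled sham-operated, so surgery and constriction cannot be told apart. Preparations were enriched for CMCs and not pure, and the embryonic and neonatal cells came from a different dissociation than the adult cells. In such a mixture, fewer cells carrying the mark and less mark per cell cannot be told apart.

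CIS, the product of Cish, and the SOCS proteins are intracellular inhibitors of cytokine signalling. Cytokine receptors activate JAK kinases, which phosphorylate STAT transcription factors such as STAT5A and STAT5B. These enter the nucleus and induce, among other targets, Cish and several Socs genes, whose products bind the receptor or the kinase and end the signal. In the heart, SOCS3 is known as a brake on gp130 signalling by the interleukin-6 family.

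Coverage is the percent of a window (the RefSeq gene span plus 10 kb on each side) that lay under peaks. The lists held 104215 to 153637 peaks and covered 2.46% to 4.48% of the genome. They hold no reads, so the depth of each library is unknown. TAC replicate 2 stood apart, with the lowest coverage of the genome and a mean peak width of 606 bp, against 675 to 801 bp in the other lists. Member windows held 39 to 81 peaks per list. The medians of 10 cardiomyocyte marker genes ran from 7.80% to 32.3% over the 8 lists and those of 7 fibroblast markers from 0.896% to 2.19%. Endothelial, leukocyte and erythroid markers had medians of 2.97% to 9.08%, 1.89% to 7.80% and 0% to 1.61%. The cardiomyocyte markers had a peak in every list except Pln in E14.5 replicate 2. By list, 0 to 3 of the 7 fibroblast and 1 to 4 of the 5 erythroid markers were at 0. The same held for 0 to 1 of the 6 endothelial and 0 to 3 of the 7 leukocyte markers. Single markers of the groups overlapped. Pecam1 (endothelial) had 10.25% to 25.26%, Cd68 (leukocyte) 4.69% to 22.13% and Col1a1 (fibroblast) 6.49% to 17.28%. The cardiomyocyte marker Pln had 0% to 8.85%.

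Sequences from stretches of the Cish, Stat5a and Stat5b windows are given first, in the direction of the named gene. Every CpG, the dinucleotide in which most methylation of mammalian DNA lies, is in capitals. From each stretch the 300 bases with the most CpGs outside untranslated exons are shown. The first comes from the widest stretch that both Neonatal lists and no other list covered, 2642 bp in Cish, and lies in a coding exon (mm10, chr9:107300486-107300785, plus strand). It holds 16 CpGs, and the whole stretch has 2.39 CpGs per 100 bp against 1.73 in the Cish window.
Cish, Neonatal lists only: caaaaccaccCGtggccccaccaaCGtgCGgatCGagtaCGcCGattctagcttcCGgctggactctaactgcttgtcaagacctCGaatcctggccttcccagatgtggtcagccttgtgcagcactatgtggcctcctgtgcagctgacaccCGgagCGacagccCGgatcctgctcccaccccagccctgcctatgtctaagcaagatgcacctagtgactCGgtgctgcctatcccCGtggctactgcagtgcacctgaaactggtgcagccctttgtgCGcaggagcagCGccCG
The next pair shows Stat5a stretches that both replicates of Adult, or both of TAC, held and no other list did. One lies in an intron (chr11:100863606-100863905, plus strand), in the widest stretch that both Adult lists and no other list held. The other spans an intron and a coding exon (chr11:100865198-100865497, plus strand), in a stretch that both TAC lists and no other list held, the only such stretch of the member windows beside 17 bp at Socs5. Each holds 8 CpGs.
Stat5a, Adult lists only: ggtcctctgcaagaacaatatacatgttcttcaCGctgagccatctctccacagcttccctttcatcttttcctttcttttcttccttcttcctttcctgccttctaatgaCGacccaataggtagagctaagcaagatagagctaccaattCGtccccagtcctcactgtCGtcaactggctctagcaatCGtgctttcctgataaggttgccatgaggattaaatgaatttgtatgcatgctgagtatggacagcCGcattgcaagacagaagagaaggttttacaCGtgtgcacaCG
Stat5a, TAC lists only: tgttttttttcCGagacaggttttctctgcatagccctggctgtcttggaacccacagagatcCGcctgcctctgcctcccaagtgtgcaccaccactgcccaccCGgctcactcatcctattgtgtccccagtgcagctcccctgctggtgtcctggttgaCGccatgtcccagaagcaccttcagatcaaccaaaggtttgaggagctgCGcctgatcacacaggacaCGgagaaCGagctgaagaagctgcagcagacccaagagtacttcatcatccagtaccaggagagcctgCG
The last shows a stretch that did not distinguish the points, being under a peak in all 8 lists. It was an intronic stretch of 2333 bp in Stat5b, from which chr11:100819670-100819969 (minus strand) is shown, with 16 CpGs.
Stat5b, all 8 lists: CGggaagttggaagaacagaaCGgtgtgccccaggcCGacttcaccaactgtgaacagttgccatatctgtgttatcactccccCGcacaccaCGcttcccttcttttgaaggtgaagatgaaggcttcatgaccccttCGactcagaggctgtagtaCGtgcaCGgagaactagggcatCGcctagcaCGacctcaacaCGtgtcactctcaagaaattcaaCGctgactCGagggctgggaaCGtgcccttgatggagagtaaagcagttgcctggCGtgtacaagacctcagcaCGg

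Cish lies on chromosome 9 (chr9:107296659-107302784, plus strand). Its window was covered to 13.9% and 13.0% in the E14.5 lists, 30.3% and 44.5% at the Neonatal point, 14.8% and 26.0% in adult CMCs, and 13.4% and 13.1% after TAC. Both Neonatal replicates were above the 6 other lists. The means (± SD, n = 2 at each point) were 13.4% ± 0.696, 37.4% ± 10.04, 20.4% ± 7.90 and 13.2% ± 0.211 in the same order.

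Neonatal coverage was highest over the gene itself, with a mean of 65.5%, against 22.7% in the upstream and 34.9% in the downstream 10 kb. Over the span without the flanks, coverage was 13.7% and 10.8% in the E14.5 lists, 58.5% and 72.5% at the Neonatal point, 8.18% and 0% in adult CMCs, and 0% in both TAC lists. The 2 Neonatal lists held a peak of 3080 bp and a peak of 5409 bp that took in the 2 exons after the first, with most of the coding sequence and of the 3′ untranslated part. They shared the whole 3080 bp. A peak of 501 bp in Adult replicate 1 lay on the first 438 bp of this shared part, and the remaining 2642 bp were under no peak of another list, as the map of Cish peaks shows.

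**Figure D1:**
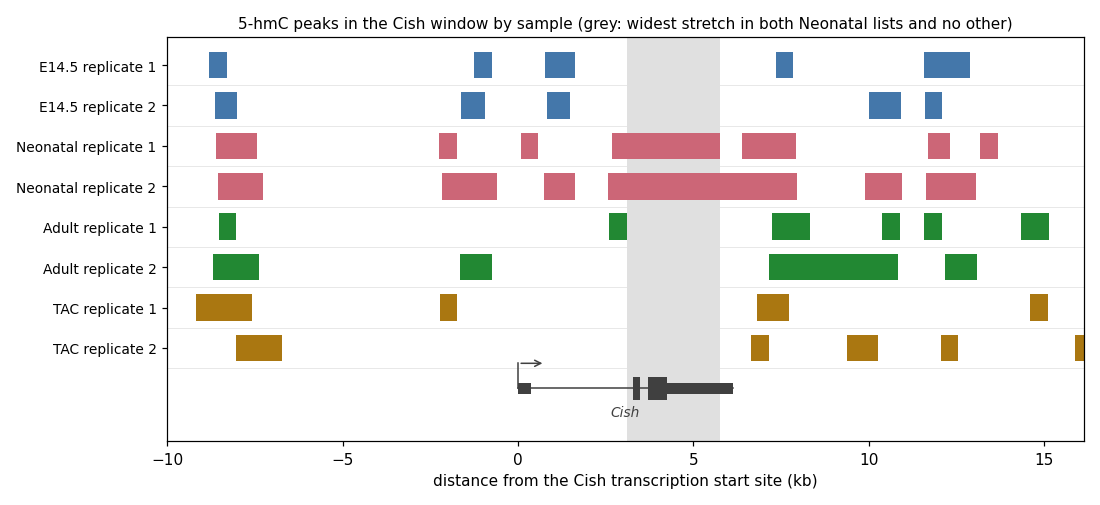
Peaks of each list (rows, coloured by point) in the Cish window against the distance from the transcription start site in kb, with the gene model below (thin boxes untranslated, tall boxes coding). The grey stretch of 2642 bp, centred 4425 bp into the gene, is under a peak in both Neonatal lists and in none of the 6 others.

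In the flanks the Adult and Neonatal lists overlapped. The upstream 10 kb were covered to 5.01% and 22.1% in Adult, 16.8% and 28.6% in Neonatal, 10.02% and 13.2% in E14.5, and 20.9% and 13.0% in TAC, and the Adult mean was 9.11 points below the Neonatal mean. The downstream 10 kb were covered to 28.8% and 45.8% in Adult, 26.6% and 43.3% in Neonatal, 18.0% and 14.1% in E14.5, and 14.1% and 21.2% in TAC. An array of AC repeats lies in this downstream flank, and of the 35 runs of at least 5 AC or GT units in the whole window, 23, 28 and 28 lay inside peaks in replicate 2 of E14.5, Neonatal and Adult, against 0 to 14 in the 5 other lists. Upstream, all 8 lists had a peak within the neighbouring kinase gene Mapkapk3, and 235 bp of these peaks were common to 7 lists. The 250 bases before the Cish start site lay under no peak in any list.

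Lists were also compared within headers that describe the same scaling of precipitated and control reads. Adult minus Neonatal coverage of the Cish window was -15.4 points for 1 header type and -18.5 points for the other. Each value rests on 1 list a point. The negative sign was given in advance, as both Neonatal lists exceeded both Adult lists. The difference of the means, -16.97 points without overlap, depended on the window. It was -61.4 points over the gene alone and -1.88 points with flanks of 20 kb, where Adult and Neonatal overlapped, as they did when peaks were counted in place of base pairs. The cardiomyocyte markers differed alongside. Their medians were 28.5% and 32.3% in Neonatal and 9.30% and 20.2% in Adult, and 9 of 10 were lower in both Adult replicates than in both Neonatal ones, as were 22.6% of all genes. Their part in the Cish pattern was not tested.

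The plot of coverage by sample shows all 10 windows. Averaged over the 8 lists, the members spanned from 2.03% for Socs6 to 24.2% for Socs3, against a median of 4.12% over the 19725 genes with a peak in any list. Socs3, Stat5b, Cish, Socs5 and Stat5a formed the upper end, each above 92.3% or more of those genes. Socs1, Socs2 and Socs7 lay between 8.01% and 10.9%, Socs4 at 4.55% and Socs6 below the median gene. Neighbours in this order, such as Cish at 21.1% and Stat5b at 21.6%, were not separated by the spread between lists.

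**Figure D2:**
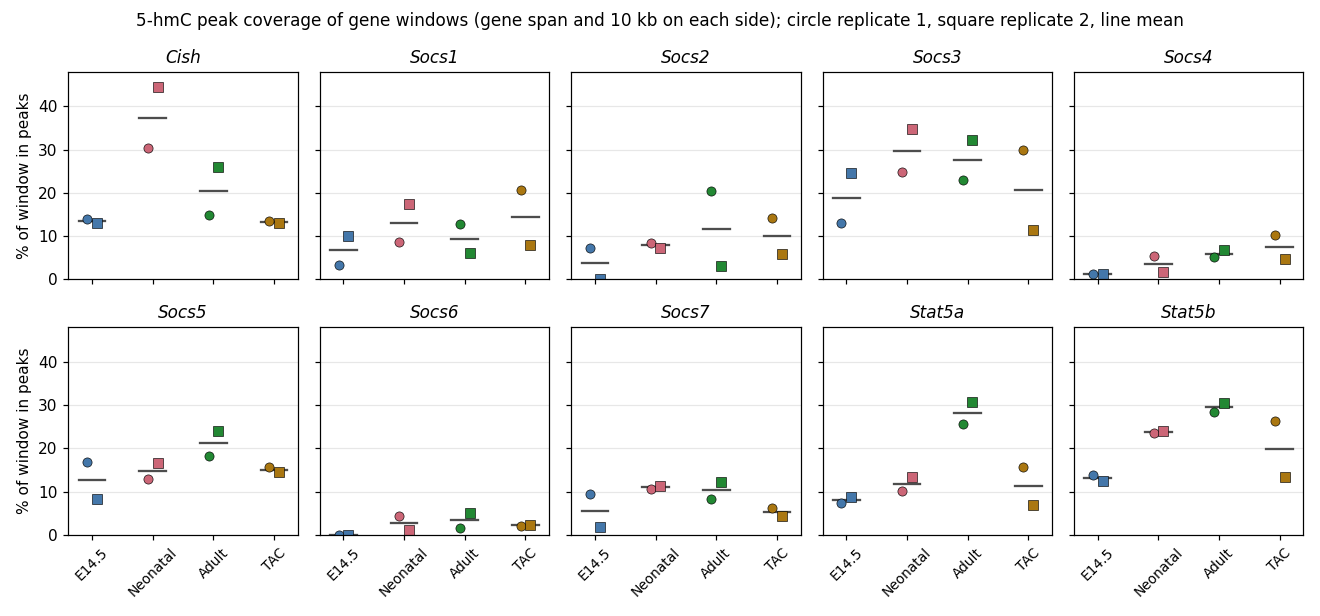
Percent of each gene window under peaks (y axis) at the 4 points (x axis) for the 10 members, with replicate 1 as a circle, replicate 2 as a square and the mean as a line. Cish was highest in Neonatal, with 30.3% and 44.5%, and Stat5a in Adult, with 25.5% and 30.6%. TAC replicates were far apart for Stat5b, at 26.3% and 13.4%.

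The transcription factor genes had their highest coverage in the Adult lists. They lie head to head on chromosome 11, Stat5b at chr11:100780731-100850581 on the minus strand and Stat5a at chr11:100859351-100885169 on the plus strand. Their windows share 11231 bp, so they are not independent, although only 4.46% to 19.2% of this shared part was covered in the Adult lists.

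STAT5A was first known as the factor that prolactin activates in the mammary gland. The Stat5a window was covered to 7.37% and 8.64% in embryonic CMCs, 10.1% and 13.3% in neonatal CMCs, 25.5% and 30.6% in the Adult lists, and 15.6% and 6.84% in the TAC lists. Both Adult lists exceeded the 6 others, and coverage in Neonatal exceeded that in E14.5 without overlap. Over the gene span alone, the Neonatal lists (7.38% and 19.8%) overlapped the E14.5 lists (7.92% and 9.51%). The difference between Adult and Neonatal was 16.4 points, 15.4 and 17.3 points within the 2 header types. On the log2(percent + 1) scale it was 1.20 ± 0.42 (SE), with an adjusted p of 0.457 by limma over all genes.

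From Adult to TAC, Stat5a coverage differed by -16.9 points, or -1.35 ± 0.42 (SE) on the same log2 scale, with an adjusted limma p of 0.646. Both TAC lists lay below both Adult lists, and without TAC replicate 2 the difference was -12.5 points. The Adult lists held 11 and 12 peaks in the Stat5a window. The widest was one of 4312 bp near the end of the gene in replicate 1 and one of 2461 bp in the first introns in replicate 2. Both overlapped peaks of Neonatal replicate 2. Both Adult replicates and no other list held 1982 bp of the window, whereas for TAC this was 501 bp, from which the TAC stretch above was taken. Of the 65 peaks in the Stat5a window over all lists, 15 lay on the end of Stat3, the neighbouring gene for another STAT factor.

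STAT5B transmits growth hormone signals in the liver and other tissues. Coverage of its window was 13.9% and 12.4% at E14.5, 23.5% and 24.0% after birth (Neonatal), 28.5% and 30.5% in Adult CMCs, and 26.3% and 13.4% under TAC. Replicates of the first 3 points lay close together and each point exceeded the one before. Neonatal was 10.6 points above E14.5 (0.81 ± 0.37 (SE) on the log2 scale, adjusted limma p 0.815), Adult 5.69 points above Neonatal (0.30 ± 0.37, adjusted limma p 0.791) and TAC minus Adult was -9.61 points (-0.62 ± 0.37, adjusted limma p 0.693). The TAC difference was -3.20 points without TAC replicate 2.

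Stat5b was the member with the most constant peaks. A total of 2399 bp of its window lay under a peak in all 8 lists, more than in any other member. The constant stretch sat in an intron within peaks of 2383 to 5277 bp, downstream of an internal RefSeq start site, as the map of the Stat5 locus shows. The 250 bases before that internal start (GRCm38.p6, chr11:100822571-100822820, minus strand) were covered entirely in E14.5 replicates 1 and 2, Neonatal replicates 1 and 2, Adult replicate 2 and TAC replicate 1, and not at all in Adult replicate 1 and TAC replicate 2. They are shown because no other member promoter was covered in more than 2 lists, with their 5 CpGs in capitals.
Stat5b, internal start: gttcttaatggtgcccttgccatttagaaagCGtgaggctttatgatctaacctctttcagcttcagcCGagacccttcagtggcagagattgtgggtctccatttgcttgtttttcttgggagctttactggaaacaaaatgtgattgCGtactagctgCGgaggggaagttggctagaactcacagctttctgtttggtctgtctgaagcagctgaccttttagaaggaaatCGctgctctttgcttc

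**Figure D3:**
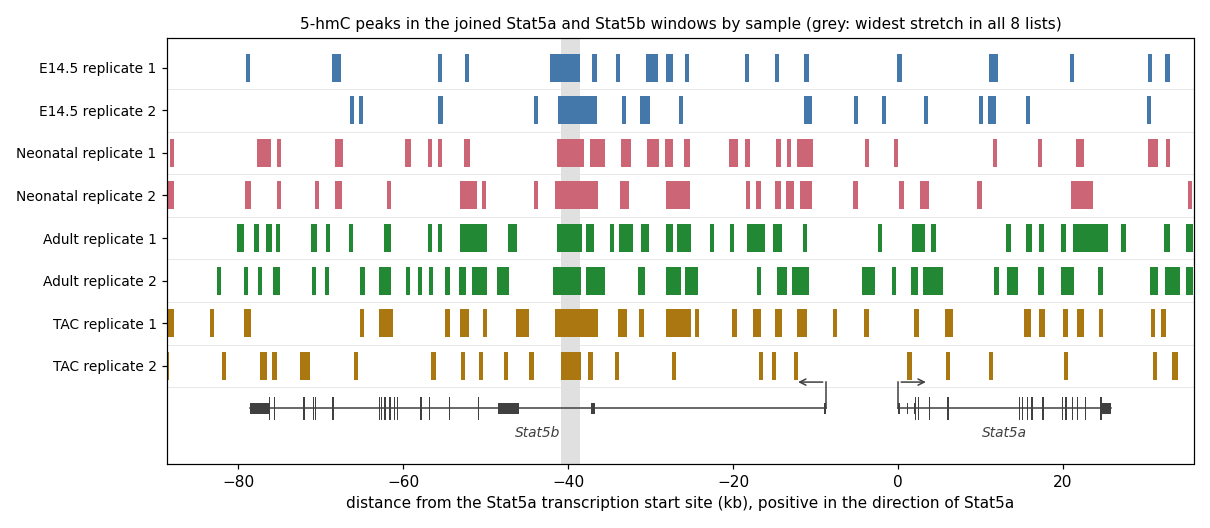
Peaks of each list (rows, coloured by point) over the joined Stat5a and Stat5b windows, against the distance from the Stat5a start site in kb, with both gene models below and arrows at their first start sites. The grey stretch of 2333 bp in Stat5b is under a peak in all 8 lists, and the Stat5a span is most filled in the Adult rows, at 35.2% and 32.3%.

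The inhibitor genes other than Cish did not share a single course. SOCS3 blocks gp130 and leptin receptor signalling. Its window was covered to 13.1% and 24.6% in the E14.5 lists, 24.9% and 34.7% at the Neonatal point, 23.0% and 32.3% in adult CMCs, and 29.9% and 11.4% after TAC. Neonatal lay above E14.5 by 10.9 points, although the nearest replicates were 24.6% and 24.9%, and the other points overlapped.

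The gene span of Socs3 (chr11:117966079-117969366, minus strand) was more distinct. Coverage there was 0% and 15.2% in embryonic CMCs, 36.4% and 27.98% in neonatal CMCs, 56.6% and 50.2% in the Adult lists, and 41.0% and 20.2% in the TAC lists. The peaks behind these values, 501 to 1862 bp wide, crossed the coding sequence or the 3′ untranslated exon, and only E14.5 replicate 1 had none. None of the 8 lists had a peak on the 250 bases before the start site. This was the single member promoter of the 8 in the RefSeq table (6 members) that held the letters TTCNNNGAA, the core to which STAT dimers bind. The motif reads the same on both strands and occurs in 7.02% of all 32851 promoters of that length. It starts 154 bases before the Socs3 start and stands in capitals here (GRCm38.p6, chr11:117969367-117969616, minus strand).
Socs3, upstream: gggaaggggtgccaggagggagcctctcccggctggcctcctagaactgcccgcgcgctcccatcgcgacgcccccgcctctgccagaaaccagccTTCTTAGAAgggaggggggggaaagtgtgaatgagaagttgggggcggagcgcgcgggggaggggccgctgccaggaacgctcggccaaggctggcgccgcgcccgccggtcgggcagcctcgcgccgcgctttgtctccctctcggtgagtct

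SOCS5 has been tied to epidermal growth factor and interleukin-4 signalling. Its window (gene at chr17:87107679-87137585, plus strand) was covered to 16.8% and 8.35% at E14.5, 12.9% and 16.7% after birth (Neonatal), 18.2% and 24.1% in Adult CMCs, and 15.6% and 14.4% under TAC. Adult exceeded Neonatal and TAC without overlap, with Adult minus Neonatal at 6.37 points and TAC minus Adult at -6.15 points. Its 82 peaks lay mostly in introns (49), as the maps of Socs3 and Socs5 peaks show.

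**Figure D4:**
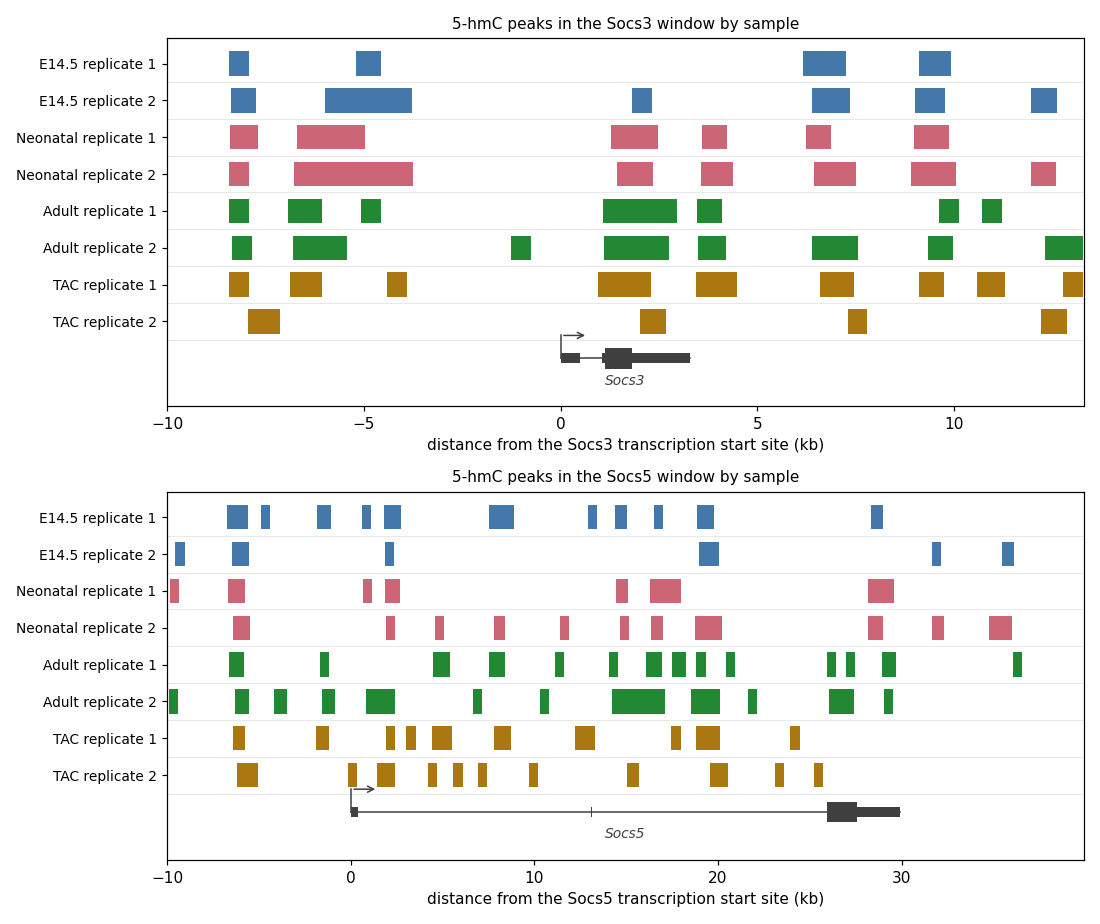
Peaks of each list (rows, coloured by point) in the Socs3 (upper) and Socs5 (lower) windows, against the distance from the start site in kb, with gene models. In Socs3, 7 of 8 lists have a peak in the second part of the gene. In Socs5 most peaks lie in introns, 49 of 82.

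SOCS1 limits interferon-gamma signalling by binding JAK kinases directly. Its window on chromosome 16 was covered to 3.37% and 9.95% in the E14.5 lists, 8.72% and 17.5% at the Neonatal point, 12.7% and 6.11% in adult CMCs, and 20.7% and 7.87% after TAC. All neighbouring points overlapped. The small gene, 1729 bp long, was bare in every list except for 0.868% in TAC replicate 1, and the coverage of its window came from the flanks.

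SOCS2 restrains growth hormone signalling. Socs2 on chromosome 10 had 7.33% and 0% in embryonic CMCs, 8.44% and 7.31% in neonatal CMCs, 20.4% and 3.01% in the Adult lists, and 14.2% and 5.92% in the TAC lists. Replicates of E14.5, Adult and TAC lay far apart, and all neighbouring points overlapped. The highest value came from a peak of 4164 bp downstream of the gene in Adult replicate 1, and the gene span itself held between 0% and 3.65%.

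Socs4, Socs6 and Socs7 encode less studied members. Socs4 on chromosome 14 had 1.28% in both E14.5 lists, 5.46% and 1.64% in neonatal CMCs, 5.13% and 6.72% in adult ones, and 10.3% and 4.58% after TAC. E14.5 was below all other lists. Of the 24 peaks in its window, 18 lay on the neighbouring gene Mapk1ip1l. Socs6 had no peak in either E14.5 list, then 4.25% and 1.02% at the Neonatal point, 1.503% and 5.11% in adult CMCs, and 2.04% and 2.31% after TAC, made of 1 to 5 peaks a list. No base pair of the Socs6 window was under a peak in both replicates of any point.

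SOCS7 has been linked to insulin signalling. Coverage at Socs7 (chr11:97362292-97398542, plus strand) was 9.39% and 1.78% at E14.5, 10.7% and 11.4% after birth (Neonatal), 8.37% and 12.2% in Adult CMCs, and 6.08% and 4.24% under TAC. Neonatal lay above E14.5 by 5.43 points and TAC minus Adult was -5.11 points, both without overlap.

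Counted over the 9 members without Cish, coverage was higher in both Neonatal replicates than in both E14.5 replicates for 6 (Socs3, Socs4, Socs6, Socs7, Stat5a and Stat5b) and lower for 0, where 26.2% of all genes were higher and 6.86% lower. All 9 had a higher Neonatal mean, against 61.5% of all genes. Their median log2 difference was 0.86, beside 0.19 over all genes. After division by the percent of the genome that each list covered, which moved the median of all genes to 0.01, 3 of the 6 (Socs6, Stat5a and Stat5b) still did not overlap, where 19.14% of all genes were higher and 15.98% lower, and the Socs5 difference turned from 2.23 points higher to slightly lower. Within the header type that both points share, the 6 had to be higher, as the call places each Neonatal list above both E14.5 lists. The overlapping Socs1, Socs2 and Socs5 were higher there by 2.06, 4.77 and 0.339 points, with a single Neonatal list.

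From Neonatal to Adult, 3 of 9 were higher without overlap (Socs5, Stat5a and Stat5b) and 0 lower, where 15.1% of all genes were higher and 22.6% lower. The median log2 difference of the members was 0.26 and that of all genes -0.11. The call places both Adult lists of these 3 above both Neonatal lists, so they had to be higher within each header type. Among the overlapping members, Socs1, Socs2, Socs4, Socs6 and Socs7 had opposite signs in the 2 types, and Socs3 was lower in both. Relative to the genome covered, 6 were higher and 0 lower, with Socs3 and Socs7 turning from lower to higher, where 28.45% of all genes were higher and 16.72% lower and the median of all genes became 0.05.

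From Adult to TAC, 4 of 9 were lower without overlap (Socs5, Socs7, Stat5a and Stat5b) and 0 higher, where 23.9% of all genes were lower and 6.35% higher. The call places both TAC lists of these 4 below both Adult lists. They therefore had to be lower without TAC replicate 2, when the share of all genes was 31.9%. The same applies within the header type that holds 1 Adult and both TAC lists. The median log2 difference was -0.46, beside -0.22 for all genes. Relative to the genome covered, Socs5, Socs7 and Stat5a remained apart, Stat5b overlapped and Socs4 was higher, where 16.5% of all genes were lower and 13.04% higher. The plot of differences sets these values against the spread of all genes.

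**Figure D5:**
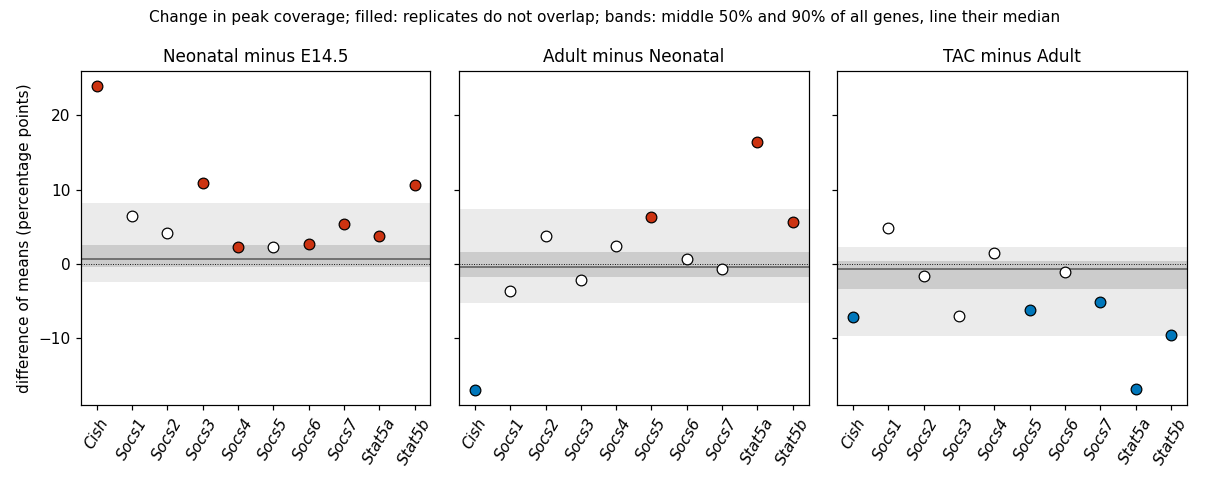
Difference of mean coverage in percentage points (y axis) for each member (x axis) at the 3 transitions, with filled points where the replicates of both points do not overlap (red higher, blue lower). Grey bands hold the middle 50% and 90% of all 19725 genes and the line is their median. Cish at the first 2 transitions and Stat5a at the last 2 are among the points outside the bands.

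No member passed the test across all genes. Limma on log2(percent + 1) called 0 of 19725 genes (0%) at an adjusted p below 0.05 in each transition, and 1275, 1907 and 1442 genes had an unadjusted p below 0.05. The lowest adjusted p among the 9 members was 0.735, 0.457 and 0.646 in the 3 transitions, and an unadjusted p below 0.05 was found for Socs6 in the first and for Stat5a in the other two. The fit was also run on simulated normal values with the spread of these data and, unlike coverage, no upper bound. For Neonatal to Adult it recovered 0 of 67 genes changed by 1 on the log2 scale and 16 of 67 changed by 2. Of those changed by 4 it recovered 57 of 66, and 3 unchanged genes also passed. The largest fitted difference of the 9 members in that transition was 1.20, for Stat5a. An exact permutation test, one-sided, over the 105 divisions of the 8 lists into 4 pairs gave its lowest member p for Stat5a, 0.0857, where the smallest possible is 0.00952 and 7.48% of all genes had a p below 0.05.

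Start sites were sparsely covered in most members. Within 1 kb of a start site, Socs2, Socs4 and Socs6 had no peak in any list, and Socs1 and Socs7 had peak bases in 1 list each. Mean coverage there was below that of the whole window for 8 of 10 members, as for 67.4% of all genes. Stat5a and Stat5b were the exceptions, at 16.3% against 14.7% and at 25.1% against 21.6%. The Stat5b value takes in internal RefSeq starts as well as the first start. The promoter stretch directly before the first Stat5b start lay under no peak in any list. That before the internal start shown above had peak bases in 6 lists. Of the 527 entries of a peak in a member window, 234 were intronic, 141 downstream, 87 upstream, 23 in coding exons, 25 in untranslated exons and 17 centred within 1 kb of a start.

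The wider pathway was read from a list of 59 genes for ligands, receptors, kinases, STATs, other inhibitors and targets. From E14.5 to Neonatal, 22 of 59 were higher and 3 lower without overlap, where 26.2% of all genes were higher and 6.86% lower, and 0 passed limma in any transition. Ifngr2, a chain of the interferon-gamma receptor, went from 20.96% and 15.6% to 29.2% and 32.8%. Bcl6, a repressor that competes with STAT5 for its sites, went from 6.10% and 7.56% to 18.01% and 20.4%. The lower ones were led by the cytokine gene Osm, from 12.1% and 5.28% to 2.07% and 5.26%, and the receptor gene Il6ra, from 7.61% and 10.2% to 6.70% and 7.17%.

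From Neonatal to Adult, 14 of the 59 pathway genes were higher and 11 lower, where 15.1% of all genes were higher and 22.6% lower. Of the 14 other inhibitors and adaptors 6 were higher and 0 lower, and of the 20 receptor genes 2 were higher and 7 lower. Pias4, which encodes an inhibitor of STATs, went from 23.3% and 28.4% to 34.6% and 38.7%. Stat3, whose window overlaps that of Stat5a, went from 12.1% and 16.2% to 25.6% and 24.0%. Ifnar2, a chain of the type I interferon receptor, went from 21.6% and 26.1% to 13.9% in both Adult lists, and Bcl6 to 11.7% and 9.73%.

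From Adult to TAC, 2 pathway genes were higher (Stat4, by 1.08 points, and the growth hormone receptor gene Ghr, by 0.497 points) and 17 of the 59 lower, where 6.35% of all genes were higher and 23.9% lower. The phosphatase gene Ptpn6 went from 29.2% and 33.7% to 24.4% and 6.05%. Pias4 and the phosphatase gene Ptpn1 each differed by -14.6 points. Without overlap, 6 of the 14 other inhibitors and adaptors were lower and 0 higher.

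The genes whose coverage over the 8 lists most resembled that of Cish were Ugp2, Il23a, Cacnb2, Fem1a and Nrp1, with Pearson's r of 0.972 to 0.952 on the log2 scale, out of 16711 genes compared. The 8 lists share 4 points and differ in coverage of the genome, so r is a description. Fem1a came nearest to Cish in level, at 8.51% and 11.8% in the E14.5 lists, 23.3% and 28.8% at the Neonatal point, 11.4% and 15.7% in adult CMCs, and 10.1% and 8.41% after TAC. Among the members, Socs7 had the highest r with Cish, 0.664, and Socs4 the lowest, -0.06.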

How the data were processed

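5-hmC was profiled by hMeDIP-seq in CMCs at 4 points with 2 replicates each. Per the labels, reads were aligned to mm10 with BWA (0.7.4-r385) and peaks were called by the authors with HOMER against input DNA, in histone mode according to the study's methods. Only the positions of the peaks were used, since the score column that the authors deposited is the same for every peak. The 11 other samples of the series have no peak list here and were not analysed here.

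Peaks were intersected with RefSeq gene spans plus 10 kb on each side. Members and gene lists were chosen with earlier results of these data known. A member counted as higher or lower where both replicates of 1 point lay beyond both of the next, read against the share of all genes. The planned test was limma (3.58.1, R 4.3.3) on log2(percent + 1), with 1 shared spread, over 19725 genes with a peak in any list and Benjamini-Hochberg adjustment. The MEDIPS test of the study needs reads. Coverage code was checked against bedtools (2.31.1) on 500 simulated windows, of which 500 gave the same value, and limma was tested on simulated data. Text names all members, the largest pathway differences without overlap in each direction, and the 5 genes most like Cish. Replicate numbers were not treated as pairs, because deviations of same-numbered lists correlated between -0.034 and 0.261. One sequence is not reported here. Alternatives varied the flank, scaling, peak width, annotation, pseudocount, filter, block and replicates.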

Additional observations from a re-analysis of the deposited data

How the results depend on the processing

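Counts of the 9 members without Cish are of those whose replicates do not overlap, with the share of all genes in brackets. Leaving out a replicate can only keep or add such calls, for members and for all genes, so it cannot lower a count. From E14.5 to Neonatal, 6 were higher as reported [26.2%], 3 relative to the genome covered [19.14%] and 3 by number of peaks per 10 kb [16.61%]. Without a flank 4 were higher [24.13%], and 4 with a flank of 5 kb [25.33%], with Socs4 and Stat5a overlapping in both. With gene spans from GENCODE M21, 7 were higher [26.07%], with Socs1 and Socs2 added and Socs6 overlapping. Stat5b alone was higher in each of these settings. In the same transition 0 to 1 were lower when a replicate was left out [12.74% to 23.4%] (1, Socs5, without E14.5 replicate 2). From Neonatal to Adult, 3 were higher as reported [15.1%], 5 without a flank [15.36%], 6 relative to the genome covered [28.45%] and 3 to 6 when a replicate was left out [20.71% to 34.81%]. The 5 came without Neonatal replicate 1 [20.71%] and the 6 without Adult replicate 1 [34.81%]. Lower were 0 as reported [22.6%], 1 (Socs7) with a flank of 20 kb [25.58%] and 0 to 2 when a replicate was left out [29.22% to 42.92%] (2 without Neonatal replicate 1, Adult replicate 1 or Adult replicate 2). From Adult to TAC, 0 were higher as reported [6.35%], 1 relative to the genome covered [13.04%] and 0 to 2 when a replicate was left out [11.34% to 20.16%] (2 without Adult replicate 1 or TAC replicate 2, 1 without Adult replicate 2), and lower counts were 3 to 6 [15.2% to 48.54%] over all alternatives. For Cish, Adult minus Neonatal was -16.97 points as reported and -1.88 points with a flank of 20 kb, where the lists overlapped, and the lists of both points also overlapped by number of peaks. Its Adult and TAC lists overlapped without a flank, relative to the genome covered and by number of peaks. Over base pairs common to both replicates, the Stat5a difference of Neonatal and E14.5 turned to -0.674 points. The causes were not tested.

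Limma called 0 members under every alternative run. Over all genes it called 0 as reported, and 57, 131 and 25 in the 3 transitions with no filter on genes. Leaving out a replicate gave 0 to 241, 0 to 269 and 0 to 334 genes, with the 334 without TAC replicate 1 and every count above 0 in the first 2 transitions without an E14.5 or Neonatal replicate. With the replicate block it called 0 genes in each transition. No depth is known, so no counting error could be given.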

Other observations

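Runs of at least 5 AC or GT units were frequent in the member windows, 150 in all. Of these, 55, 64 and 71 lay inside peaks in replicate 2 of E14.5, Neonatal and Adult, and 21, 30 and 37 in replicate 1 of the same points. TAC replicates 1 and 2 held 30 and 28. Stat5b held 41 of the runs and Cish 35, and 52 of the 150 lay outside peaks in all 8 lists. These counts were chosen after sequences of the windows had been seen, and their relation to coverage was not tested.

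CpG density under peaks did not differ from that outside peaks in a single direction. In Stat5a it was 1.70 per 100 bp under any peak and 1.76 outside all peaks, in Socs7 1.45 and 1.48, and in Socs4 1.36 and 1.33. It was lower under peaks in Socs3 (2.04 against 2.34), Socs1 (1.49 against 1.98) and Socs2 (1.55 against 2.35). It was higher in Cish (1.87 against 1.46), Stat5b (1.65 against 1.33), Socs5 (1.88 against 1.23) and Socs6 (1.10 against 0.720). The first start sites of Socs1 and Socs2, at 7.95 and 7.65 CpGs per 100 bp, carried almost no peak. Those of Socs7, Socs5, Stat5b and Socs3 were similarly dense, at 7.95, 7.40, 7.30 and 7.15.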
